A study of Homo sapiens with 12 samples.

Results

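The zinc finger genes with symbols from ZNF500 to ZNF799 were described in 2 lines of HEK293T, a transformed human embryonic kidney cell line. The table of counts held 59385 gene names, of which 219 had a symbol of this series. A minimum of 100 counts summed over the 12 libraries left 179 members. Of the 40 names below the minimum, 14 had 0 counts in every library. The nearest names outside were ZNF682, ZNF544 and ZNF707 with 72, 76 and 80 summed counts, and the nearest inside were ZNF528, ZNF648 and ZNF575 with 115, 119 and 130. Members were thus chosen by their symbol and selected on their summed counts. A sum can pass through the line in which a gene is high, and 5 members (ZNF525, ZNF528, ZNF563, ZNF575 and ZNF648) would have missed the minimum at 2 times the count of their lower line.

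Both lines carried a doxycycline (Dox)-inducible shRNA. In the shCtrl line the shRNA was a non-targeting control, and in the shPRRC2B line it was directed at PRRC2B, a protein that binds mRNA and is studied for its part in translation. Cells were collected 36 h after Dox was added, and poly(A)-enriched RNA was sequenced from total RNA and from the pooled heavy fractions of a sucrose gradient (polysome RNA), with 3 biological replicates for each of the 4 combinations of line and fraction. According to the methods each line was a stable single clone, so a difference between the clones and an effect of the shRNA cannot be told apart in any comparison of the lines. The labels call the replicates biological without saying that they were separate cultures, and p-values then measure the spread between these libraries, which may be technical. RNA came from whole cultures, so fewer cells of a kind and less RNA per cell cannot be told apart.

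C2H2 zinc finger proteins form the largest family of human transcription factors. Each finger is a short fold held by a zinc ion and reads a few bases of DNA, and many fingers stand in a row, joined by a conserved linker. A large share of the family also has a KRAB domain, which recruits the corepressor TRIM28 (KAP1) and with it silencing enzymes to transposable elements. KRAB zinc finger genes arose by repeated tandem duplication and lie in clusters, above all on chromosome 19. Other proteins with the ZNF name work outside this scheme, in ribosome quality control, in chromatin complexes or in development.

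The label held for most but not for every member. Of the 179 members, 178 were matched to a canonical transcript of GENCODE 44, and the exception was ZNF720. Among the 178, ZNF658B is annotated as a transcribed unprocessed pseudogene and has no coding sequence. A finger pattern was found a median of 10 times per protein and up to 30 times, and a KRAB pattern was found in 101 members and not in 76. ZNF503 and ZNF703, the pair of the NET family, had 0 matches to the finger pattern. Members lay on chromosome 19 in 88 cases, on chromosome 16 in 14, on chromosome 1 in 12, on chromosome 7 in 10 and on chromosome 3 in 9.

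The repeats of the family are visible in the nucleotide sequence, and they bear on how reads can be assigned. The linker between adjacent fingers was counted only as the exact residues TGEKPY, and other forms of it were left out. This form was encoded 570 times in 119 of the 177 members with a coding sequence, in 140 different spellings. Among the 19601 genes with a coding sequence, 321 further genes held it. The most frequent spellings are given on the coding strand of the canonical transcripts. Capitals mark the base that differs from the first spelling.
linker spelling A: actggagagaaaccctac
linker spelling B: actggagagaaaccctaT
linker spelling C: actggagagaaaccTtac
Spelling A stood 77 times in 22 members, spelling B 56 times in 29 members and spelling C 34 times in 16 members. The stated counting options named neither reads that map to several places nor a strand. In 27 members more than 5% of all 100-base stretches of the transcript also occur in another gene, and their values are uncertain for that reason. Reads of overlapping antisense genes cannot be told apart from those of a member.

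Library totals lay between 9855734 and 20837542 counts. PRRC2B itself fell in total RNA from 281 ± 28.7 to 100.3 ± 2.32 CPM, which are counts scaled to library depth (SD, n = 3), a log2 change of -1.49 ± 0.17 (SE; edgeR, adjusted p = 4.3e-06). Among the genes listed as markers of the line, NEFM and NEFL fell in total RNA (log2 changes of -1.57 and -1.0), LIN28B rose (1.07), PAX2 was detected and not called, and LHX1 was at a mean of 0.24 CPM or less in each group. PTPRC and ALB, which mark leukocytes and hepatocytes, had means of at most 0.19 CPM, and PECAM1, which marks endothelium, at most 0.12 CPM. COL1A1, which marks fibroblasts, rose in total RNA from 17.1 ± 2.33 to 31.8 ± 1.90 CPM (SD, n = 3). The summed level of the nuclear RNAs MALAT1, NEAT1 and KCNQ1OT1 was 329 to 403 CPM in shCtrl and 146 to 175 CPM in shPRRC2B total RNA. In polysome RNA it was 84.9 to 409 CPM in shCtrl and 31.5 to 44.8 CPM in shPRRC2B. Mitochondrial genes took 4.21% to 5.14% of the counts in shCtrl and 5.69% to 6.07% in shPRRC2B total RNA, without overlap. Replicate 1 stood apart in the polysome RNA of both lines: the chi-square per degree of freedom between replicates was 53.9 and 75.4 for its pairs against 22.3 for the other pair in shCtrl, and 38.2 and 37.9 against 13.9 in shPRRC2B. The part of these shifts in the changes of the members was not tested.

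The members were rare transcripts. Their mean over the 12 libraries was between 0.46 and 339 CPM with a median of 9.71 CPM. Per length, the level in shCtrl total RNA was a median of 2.86 FPKM, the count of fragments corrected for transcript length and library depth, over the members with a transcript, and the highest were ZNF703 with 140 FPKM, ZNF768 with 72.5 FPKM and ZNF580 with 58.8 FPKM. All members together took 0.62% of the counts in each shCtrl total library and 0.56% to 0.58% in the shPRRC2B total libraries. In polysome RNA their share was 0.24% to 0.26% in shCtrl and 0.21% to 0.23% in shPRRC2B. The median member was at 11.4 to 11.6 CPM in shCtrl total RNA and at 8.49 to 8.74 CPM in shPRRC2B total RNA, with no overlap between the lines.

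Between the lines, the zinc finger genes fell more often than they rose. A gene was called at a Benjamini-Hochberg adjusted p under 0.05 in edgeR's quasi-likelihood test (edgeR) and a log2 change beyond 0.5 in either direction, over all 18166 genes tested, and all 179 members were among them. In total RNA 60 members fell, 33.5% against a background of 14.1% of all genes tested, and 17 members rose, 9.5% against 14.9%. In polysome RNA 72 members fell, 40.2% against 21.4%, and 19 members rose, 10.6% against 18.4%. The median log2 change of the members was -0.28 in total RNA, where that of all genes tested was 0.04, and -0.43 in polysome RNA, where that of all genes was -0.01. Paired by replicate number for description only, the median of the members lay between -0.32 and -0.24 in total RNA and between -0.49 and -0.42 in polysome RNA. In total RNA all 3 shPRRC2B values lay below all 3 shCtrl values in 88 members (49.2%, against 28.8% of all genes tested) and above them in 42 (23.5%, against 34.1%). Of the 268 other ZNF genes that were tested, 33.6% were lower and 13.4% higher in total RNA. Without the 5 members that may have passed the minimum through 1 line, 58 were lower and 15 higher in total RNA, and on chromosome 19 from 40 Mb on 32 of 42 were lower.

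The fall followed the position of the genes. On chromosome 19 from 40 Mb to the end of the q arm (GRCh38), 34 of 45 members (75.6%) were called lower in total RNA and 0 higher, with a median log2 change of -1.13. By edgeR and by DESeq2 alike, 0 of these 45 members were higher at an unadjusted p under 0.05. On chromosome 3, 7 of 9 members (77.8%) were called lower and 0 higher, with a median of -0.87. In all other places, leaving out ZNF720 without a position, 19 of 124 members (15.3%) were lower and 17 (13.7%) higher, with a median of -0.05. The place was chosen after the values were seen, so these counts are a description without a test.

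**Figure D1:**
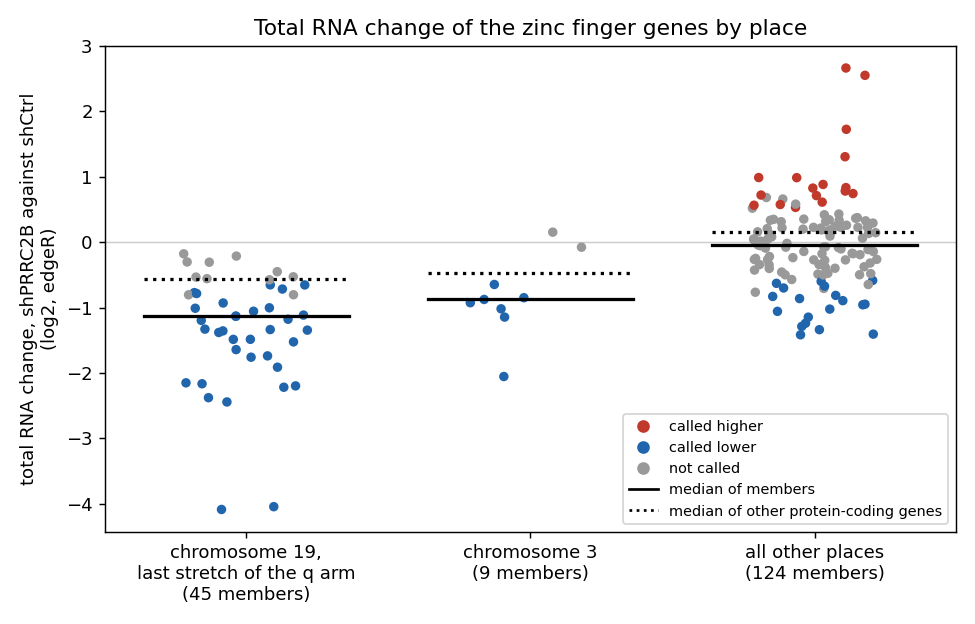
Total RNA change of each member (log2, shPRRC2B against shCtrl, vertical axis) by place on the genome, with points coloured by call, a solid line at the median of the members and a dotted line at the median of the other protein-coding genes of the same place. The last stretch of the q arm of chromosome 19 is that from 40 Mb on. The medians of the members are -1.13, -0.87 and -0.05 from left to right, and those of the other protein-coding genes are -0.56, -0.46 and 0.15.

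Genes without a ZNF symbol in the same places fell too. These other protein-coding genes were set apart by symbol alone, so zinc finger genes with symbols of another form may be among them. Among other protein-coding genes of chromosome 19 from 40 Mb on, 124 of 294 (42.2%) were called lower in total RNA with a median of -0.56, and on chromosome 3 it was 315 of 755 (41.7%) with a median of -0.46. Elsewhere 9.75% of 12117 other protein-coding genes were lower and 19.1% higher, with a median of 0.15. The other ZNF genes of the same stretch of chromosome 19 were lower in 52 of 73 cases (71.2%). Within the last window of chromosome 19, from 50 to 60 Mb, 33 of 39 members (84.6%) fell with a median of -1.19, as did 45 of 85 other protein-coding genes (52.9%) with a median of -1.01. In the window from 40 to 50 Mb, 1 of 6 members and 37.8% of 209 other protein-coding genes fell. In the window from 30 to 40 Mb, 10 of 21 members fell, against 12.8% of 109 other protein-coding genes. On chromosome 16, with 14 members, 0 were lower in total RNA (0 also at an unadjusted p under 0.05 by edgeR and by DESeq2), and the median was 0.29, beside 0.28 for the other protein-coding genes there.

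Subtracting the median of the neighbours made the shift of the members smaller. For 167 members with at least 10 other protein-coding genes in their window of 10 Mb, the median log2 change in total RNA was -0.30, and it was -0.14 after the median of those genes was subtracted. Members at or below -0.5 numbered 66 before and 39 after the subtraction. Of the 56 members called lower among the 167, 44 lay in windows whose other genes had a median below -0.25, and 29 were still at or below -0.5 after the subtraction. How much of the fall comes from the place of the genes and how much from their kind was not tested.

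KRAB genes are the clustered kind, and the splits by KRAB and by place overlapped. Of the 101 members with the KRAB pattern 50 (49.5%) were lower in total RNA, and of the 76 without it 10 (13.2%). Off chromosome 19, 8 of 30 KRAB members (26.7%) were lower, and on chromosome 19 it was 42 of 71 (59.2%). Members without the pattern were lower in 4 of 59 cases (6.78%) off chromosome 19 and in 6 of 17 (35.3%) on it. Both within and outside that chromosome the share was higher with the pattern, which was not tested. The pattern is a short motif sought in the canonical transcript alone, so members without a match may still have a KRAB domain. The KRAB members were also the rarer ones, with a median of 6.24 CPM against 22.1 CPM without the pattern. The number of CG pairs in the promoter window of 300 bases around the start (RefSeq) had a median of 23 for 51 members called lower. It was 22 for 84 not called, 20 for 17 called higher and 26 for 11939 genes tested. On chromosome 19 the medians were 23 for 42 members called lower, 19.5 for 30 not called and 19 for 9 called higher. These differences were not tested.

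The largest falls in total RNA among members with a mean of at least 2 CPM were those of ZNF548, ZNF582, ZNF583 and ZNF606, KRAB zinc finger genes of that last window of chromosome 19. ZNF548 (chr19:57389850-57402992, plus strand) was at 23.4, 22.2 and 21.3 CPM in shCtrl and at 4.25, 3.86 and 4.20 CPM in shPRRC2B total RNA. The shPRRC2B values were all far below the lowest shCtrl value, and the log2 change was -2.44 ± 0.27 (SE; edgeR, adjusted p = 3.9e-06). In polysome RNA it went from 8.15, 12 and 8.10 CPM to 1.98, 0.38 and 2.09 CPM, again without overlap, with a log2 change of -2.65 ± 0.34 (SE; edgeR, adjusted p = 9.3e-06).

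ZNF582 (chr19:56375846-56393538, minus strand) and ZNF583 (chr19:56397966-56436035, plus strand) are neighbours that point away from each other. ZNF582 was at 1.89, 1.97 and 1.52 CPM in shCtrl and at 0.33, 0.46 and 0.22 CPM in shPRRC2B total RNA, the last from 7, 13 and 5 counts. ZNF583 was at 2.98, 2.96 and 3.04 CPM in shCtrl and at 0.28, 0.86 and 0.74 CPM in shPRRC2B total RNA. Both genes were lower in every shPRRC2B library than in any shCtrl library, with log2 changes of -2.38 ± 0.37 and -2.22 ± 0.39 (SE). The adjusted p was 0.00011 for ZNF582 and 0.00034 for ZNF583 (edgeR). ZNF606 (chr19:57977076-58003349, minus strand) fell from 12.1, 10.7 and 11.3 CPM to 1.59, 2.75 and 3.06 CPM, a log2 change of -2.20 ± 0.31 (SE; edgeR, adjusted p = 5.2e-05).

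On chromosome 3 the steepest fall was that of ZNF619 (chr3:40477113-40491053, plus strand), a KRAB zinc finger gene. It was at 13.0, 13.6 and 11.7 CPM in shCtrl and at 3.27, 3.51 and 2.45 CPM in shPRRC2B total RNA, and in polysome RNA it went from 4.03, 6.94 and 6.77 CPM to 0.60, 0.67 and 0.48 CPM. No value of one line reached the range of the other in either fraction. The log2 change was -2.05 ± 0.24 in total RNA (SE; edgeR, adjusted p = 6.45e-06) and -3.32 ± 0.34 in polysome RNA (SE; edgeR, adjusted p = 9.1e-07). Its neighbours ZNF620 and ZNF621, named after their values were seen, had log2 changes of -0.87 and -0.92 in total RNA and were also called lower. ZNF639, at the other end of the chromosome, had a log2 change of 0.15 and was not called.

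Rises were fewer and lay elsewhere. The largest among members with a mean of at least 2 CPM was that of ZNF595, a KRAB zinc finger gene near the end of the short arm of chromosome 4 (chr4:53286-88208, plus strand). It was at 2.04, 1.42 and 1.17 CPM in shCtrl and at 9.29, 10.1 and 8.44 CPM in shPRRC2B total RNA. In polysome RNA its values were 1.69, 2.39 and 0.89 CPM in shCtrl and 13.2, 13.0 and 22 CPM in shPRRC2B. The lines did not overlap in either fraction, and the log2 changes were 2.55 ± 0.29 in total RNA (SE; edgeR, adjusted p = 6.3e-06) and 3.27 ± 0.33 in polysome RNA (SE; edgeR, adjusted p = 7.7e-07).

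ZNF503, a NET family regulator of development, was among the most abundant members. Its total RNA was at 148, 171 and 132 CPM in shCtrl and at 321, 308 and 266 CPM in shPRRC2B, all above the control range, with a log2 change of 0.99 ± 0.14 (SE; edgeR, adjusted p = 6.2e-05). ZNF608, a long protein with a single finger match, rose from 30.6, 29.8 and 26.1 CPM to 55.9, 60.0 and 55.7 CPM in total RNA (log2 change 0.99 ± 0.22, SE; edgeR, adjusted p = 0.0021). Its polysome values overlapped between the lines, 9.08, 3.91 and 4.33 CPM against 9.20, 4.78 and 7.13 CPM. ZNF724 rose from 3.85, 4.45 and 4.08 CPM to 7.47, 8.23 and 7.17 CPM in total RNA (log2 change 0.88 ± 0.24, SE; edgeR, adjusted p = 0.0094; 0.051 without shCtrl total replicate 1), and 51.5% of its 100-base stretches are shared with another gene. Without any 1 of the shCtrl total libraries the number of members called higher in total RNA was 9 or 10, and without shPRRC2B total replicate 1 or 2 it was 11 or 9, in place of 17.

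**Figure D2:**
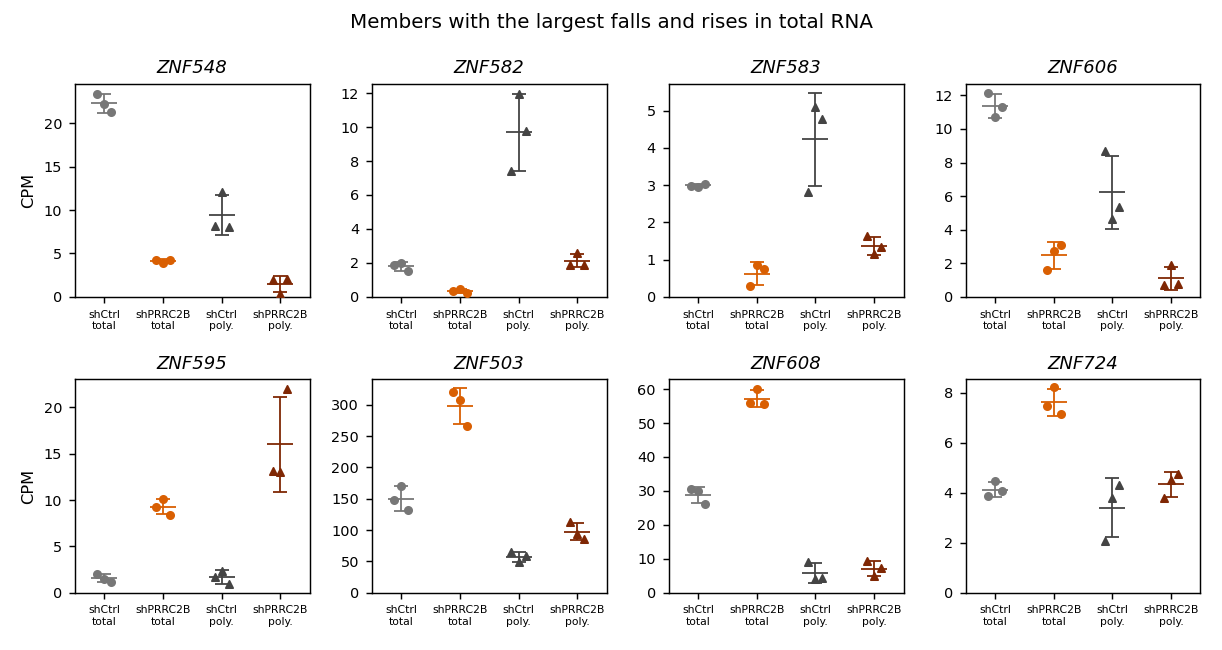
CPM of 8 members in each library (points), with the mean and SD of the 3 replicates (bars) for shCtrl and shPRRC2B total RNA (circles) and polysome RNA (poly., triangles). Each panel has its own vertical axis from 0. The upper row shows the 4 largest falls in total RNA, ZNF548 to ZNF606, and the lower row the 4 largest rises, ZNF595 to ZNF724, and in all 8 panels the circles of the lines do not overlap.

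Most of the falls in total RNA were also called in polysome RNA. Of the 60 members lower in total RNA 48 were also lower in polysome RNA, and no member was called in opposite directions in the fractions. Lower in both fractions without a call for translation efficiency were 42 members, and 63 members had no call at all. These overlaps of calls were not counted over all genes tested, so they are not a trait of the members. Translation efficiency (TE) is the ratio of polysome to total RNA, and the TE change is its log2 ratio between shPRRC2B and shCtrl, fitted as an interaction of line and fraction. TE fell in 25 members, 14% against 16.4% of all genes tested, and rose in 12, 6.7% against 10.7%. The median log2 TE change of the members was -0.04 and that of all genes -0.03. With the length trend removed, that is with counts in each library corrected for their smooth dependence on transcript length, 6 members had lower TE, 3.35% against 9.61% of all genes. Lower TE was called in 8 of 27 members (29.6%) with over 5% of shared 100-base stretches and in 17 of 151 (11.3%) with less, so the uncertain members make up more of these calls than of the members. Without polysome replicate 1 of both lines, left out after the data were seen, 37 members had lower and 17 higher TE. Of all genes tested in that setting, 22% had lower and 14.9% higher TE. On chromosome 19 from 40 Mb on, the median log2 TE change of the members was 0.05, with 5 of 45 lower (11.1%) and 3 higher (6.67%). Of the other protein-coding genes of that stretch, 8.84% had lower and 12.9% higher TE.

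**Figure D3:**
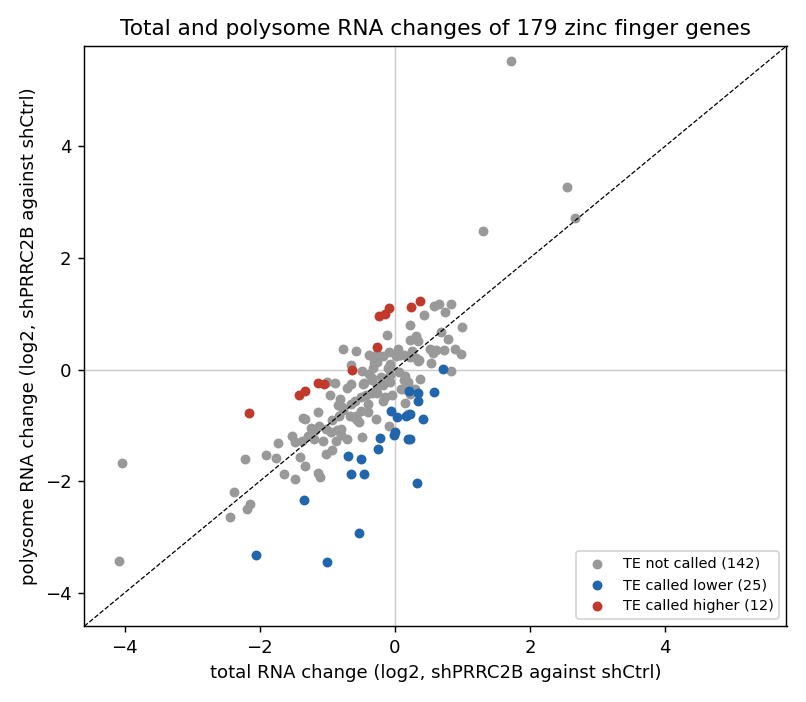
Total RNA change (horizontal axis, log2) against polysome RNA change (vertical axis, log2) of the 179 members between shPRRC2B and shCtrl, coloured by the TE call, with a dashed line where both changes are equal. Members spread along the dashed line, and the 12 members with higher TE lie above it and the 25 with lower TE below it.

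The members with higher TE reached that call in different ways. In 5 of the 12 polysome RNA rose without a call in total RNA, in 5 total RNA fell without a call in polysome RNA, in 1 both fell, and in 1 neither was called. The member with both fractions lower was ZNF530 (chr19:57599885-57612722, plus strand), a KRAB zinc finger gene and the largest rise in TE. Its total RNA fell from 10.1, 10.6 and 11.4 CPM to 2.1, 2.61 and 2.40 CPM, and its polysome RNA from 31.8, 24.4 and 21.1 CPM to 14.3, 14.6 and 16.4 CPM. Both fractions were lower in every shPRRC2B library, and total RNA more so, which gave a log2 TE change of 1.39 ± 0.26 (SE; edgeR, adjusted p = 0.00087).

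ZNF599 (chr19:34758073-34773229, minus strand) gained polysome RNA. Its total RNA was at 7.21, 8.80 and 9.19 CPM in shCtrl and at 7.37, 7.33 and 6.60 CPM in shPRRC2B, which overlap, while its polysome RNA went from 34.3, 26.7 and 25.2 CPM to 48.8, 54.7 and 64.3 CPM, which do not. The log2 TE change was 1.20 ± 0.23 (SE; edgeR, adjusted p = 0.0012). ZNF720 had the same pattern, with total RNA at 9.85, 8.54 and 12.2 CPM against 10.1, 8.91 and 9.66 CPM and polysome RNA at 12.5, 13.1 and 9.87 CPM against 27.1, 20.3 and 28.5 CPM (log2 TE change 1.18 ± 0.26, SE; edgeR, adjusted p = 0.0032). ZNF514 went from 12.1, 9.55 and 12.6 CPM to 17.7, 21.5 and 28.9 CPM in polysome RNA with overlapping total RNA (log2 TE change 1.13 ± 0.24, SE; edgeR, adjusted p = 0.0025), and 26.2% of its 100-base stretches are shared with another gene.

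ZNF692 and ZNF749 had higher TE through total RNA. ZNF692 (chr1:248850006-248859144, minus strand) fell in total RNA from 45.4, 42.6 and 36.1 CPM to 13.4, 15.8 and 17.4 CPM, while its polysome values of 15.2, 9.11 and 15.1 CPM and of 9.29, 10.5 and 8.85 CPM overlapped. Its log2 TE change was 0.95 ± 0.26 (SE; edgeR, adjusted p = 0.013). ZNF749 had total RNA of 15.6, 17.9 and 15.5 CPM against 6.44, 7.19 and 5.77 CPM and overlapping polysome RNA (log2 TE change 0.95 ± 0.29, SE; edgeR, adjusted p = 0.023). The call of ZNF749 ended when any 1 of 5 libraries was left out (shCtrl total replicate 2, replicates 1 and 3 of shPRRC2B in each fraction), with an adjusted p of 0.051 to 0.066 (edgeR).

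**Figure D4:**
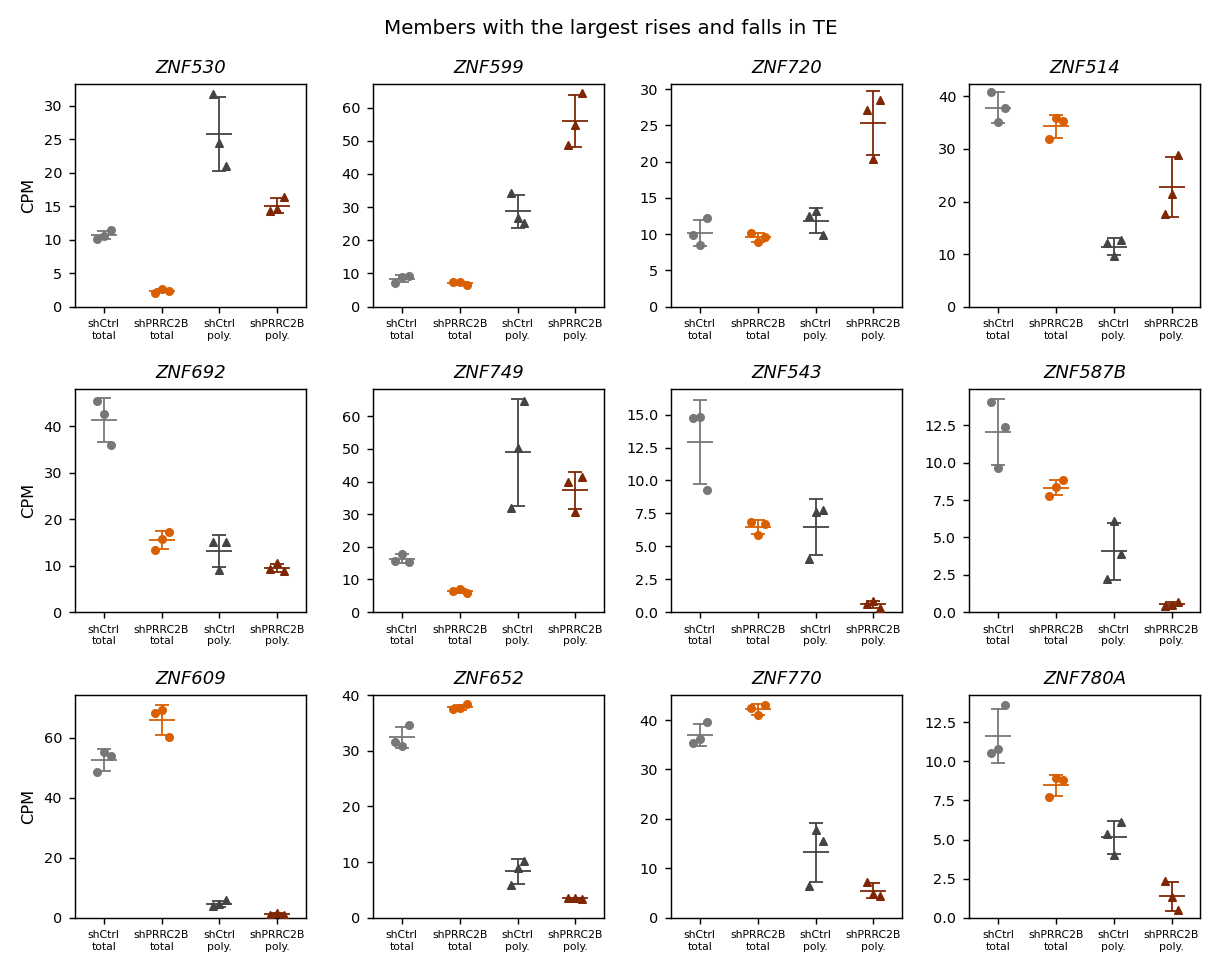
CPM of 12 members in each library (points), with the mean and SD of the 3 replicates (bars) for shCtrl and shPRRC2B total RNA (circles) and polysome RNA (poly., triangles). Each panel has its own vertical axis from 0. The first 6 panels, ZNF530 to ZNF749, are the largest rises in TE and the last 6, ZNF543 to ZNF780A, the largest falls, in which the shPRRC2B polysome means are between 0.52 and 5.49 CPM.

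Of the 25 members with lower TE, 16 fell in polysome RNA without a call in total RNA, 5 fell in both, 2 rose in total RNA without a call in polysome RNA and 2 had neither call. ZNF543 (chr19:57320472-57330770, plus strand), a KRAB zinc finger gene, had the largest fall in TE. Its polysome RNA went from 4.03, 7.60 and 7.76 CPM to 0.60, 0.86 and 0.29 CPM, and its total RNA from 14.8, 14.8 and 9.26 CPM to 6.86, 5.87 and 6.69 CPM. Neither fraction overlapped between the lines, and the log2 TE change was -2.44 ± 0.48 (SE; edgeR, adjusted p = 0.0014). The KRAB gene ZNF587B of the same window had polysome RNA of 2.25, 6.08 and 3.88 CPM in shCtrl and of 0.43, 0.48 and 0.67 CPM in shPRRC2B, with a log2 TE change of -2.40 ± 0.49 (SE; edgeR, adjusted p = 0.00175). Its total RNA, 14, 9.68 and 12.4 CPM against 7.79, 8.37 and 8.83 CPM, was lower in each shPRRC2B library but not called (log2 change -0.53 ± 0.25, SE; edgeR, adjusted p = 0.12). The TE changes of ZNF543 and ZNF587B both rest on few shPRRC2B polysome reads.

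ZNF609 (chr15:64460578-64686068, plus strand), a long single-finger protein related to ZNF608, moved in opposite directions in the fractions. Total RNA was at 48.5, 55.2 and 54.0 CPM in shCtrl and at 68.4, 69.2 and 60.2 CPM in shPRRC2B, and polysome RNA at 3.75, 4.56 and 5.77 CPM and at 1.03, 1.43 and 0.95 CPM. All shPRRC2B values lay above the control range in total RNA and below it in polysome RNA, and the log2 TE change was -2.36 ± 0.28 (SE; edgeR, adjusted p = 3.2e-05). The total RNA change of 0.33 ± 0.14 on the log2 scale was not called (SE; edgeR, adjusted p = 0.076).

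ZNF652 (chr17:49289206-49362473, minus strand), a transcriptional repressor, went from 5.81, 9.01 and 10.2 CPM to 3.53, 3.53 and 3.42 CPM in polysome RNA, below the control range in every library. Its log2 TE change was -1.47 ± 0.26 (SE; edgeR, adjusted p = 0.00057), and the call ended with the length trend removed (adjusted p = 0.072), as did those of ZNF770 (0.057) and ZNF780A (0.058). ZNF770 had polysome values of 6.46, 17.7 and 15.4 CPM in shCtrl and of 7.22, 4.78 and 4.47 CPM in shPRRC2B, which overlap through 1 library of each line (log2 TE change -1.43 ± 0.36, SE; edgeR, adjusted p = 0.0072). ZNF780A went from 5.34, 4.01 and 6.10 CPM to 2.32, 1.34 and 0.48 CPM (log2 TE change -1.43 ± 0.45, SE; edgeR, adjusted p = 0.025). Its call ended when any 1 of 6 libraries was left out (replicates 1 and 2 of shCtrl total RNA, replicates 2 and 3 of shPRRC2B in each fraction), with an adjusted p of 0.052 to 0.063 (edgeR), and 7.77% of its 100-base stretches are shared with another gene.

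The largest falls in polysome RNA were those of ZNF543, ZNF619, ZNF587B and ZNF548, whose values are given above. The largest rises beside ZNF595 were those of ZNF771, ZNF778 and ZNF668, all on chromosome 16. ZNF771 was at 145, 85.5 and 86.1 CPM in shCtrl and at 258, 237 and 251 CPM in shPRRC2B polysome RNA, without overlap (log2 change 1.23 ± 0.16, SE; edgeR, adjusted p = 1.5e-05). ZNF778 went from 13.9, 9.44 and 10.9 CPM to 24.6, 24.5 and 28.6 CPM (log2 change 1.18 ± 0.16, SE; edgeR, adjusted p = 1.6e-05), and its total RNA from 20.1, 19.1 and 22 CPM to 37.5, 36.2 and 34.7 CPM. ZNF668 went from 7.96, 7.05 and 3.11 CPM to 17.1, 10.4 and 13.5 CPM (log2 change 1.17 ± 0.27, SE; edgeR, adjusted p = 0.0021). Of the 14 members on chromosome 16, 6 were higher in polysome RNA (42.9%), beside 33.3% of the other protein-coding genes of that chromosome.

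Of the members with roles at the ribosome, ZNF598 and ZNF622, each was called higher in 1 fraction and neither in TE. ZNF598, an E3 ubiquitin ligase that marks collided ribosomes, was at 94.8, 88.6 and 79.5 CPM in shCtrl and at 113, 112 and 109 CPM in shPRRC2B total RNA. In polysome RNA it was at 35.8, 47.2 and 45.0 CPM against 52.7, 69.7 and 59.4 CPM, above the control range (log2 change 0.51 ± 0.14, SE; edgeR, adjusted p = 0.0064), and its log2 TE change was 0.16 ± 0.19 (SE; edgeR, adjusted p = 0.57). ZNF622, which acts in maturation of the large ribosomal subunit, rose in total RNA from 16.9, 19.9 and 13.7 CPM to 25.9, 25.9 and 23.2 CPM (log2 change 0.57 ± 0.15, SE; edgeR, adjusted p = 0.0073), with a log2 TE change of -0.26 ± 0.22 (SE; edgeR, adjusted p = 0.39). ZNF593, fixed for the same group, was not a member.

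Of 7 members picked for roles in chromatin complexes, 4 had lower TE, where 16.4% of all genes tested did, and 0 had higher TE. The list does not claim to hold every member with such a role, and the share depends on the choice. The transcripts of all 7 have at least 4559 nt, and among all genes the share with lower TE was 24.5% in the middle and 39.8% in the longest of the 3 length classes compared further on. All 4 calls ended when the length trend was removed. ZNF532, ZNF592 and ZNF687 form a complex with the chromatin reader ZMYND8. ZNF687 was at 62.2, 65.0 and 54.5 CPM against 65.5, 61.7 and 58.4 CPM in total RNA, which overlap, and at 20.4, 19.1 and 21.4 CPM against 11.3, 13.1 and 9.42 CPM in polysome RNA, which do not. Its log2 TE change was -0.88 ± 0.20 (SE; edgeR, adjusted p = 0.0034; 0.071 with the length trend removed).

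ZNF532 had polysome RNA of 4.96, 5.10 and 7.32 CPM against 3.35, 1.91 and 2.09 CPM and a log2 TE change of -1.0 ± 0.30 (SE; edgeR, adjusted p = 0.018; 0.29 with the length trend removed), which missed the threshold without shPRRC2B polysome replicate 2 (adjusted p = 0.050). ZNF592 overlapped between the lines in polysome RNA, with a log2 TE change of -0.43 ± 0.24 (SE; edgeR, adjusted p = 0.20). It was called without shCtrl or shPRRC2B polysome replicate 1 (adjusted p = 0.045 and 0.041, edgeR) and without both (log2 TE change -0.80, adjusted p = 0.0030).

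ZNF644, a partner of the histone methyltransferases G9a and GLP, was at 48.4, 60.8 and 49.7 CPM in shCtrl and at 37.7, 28.2 and 29.3 CPM in shPRRC2B polysome RNA. Total RNA overlapped, at 47.5, 48.1 and 52.2 CPM against 46.3, 48.4 and 47.7 CPM, and the log2 TE change was -0.68 ± 0.19 (SE; edgeR, adjusted p = 0.014; 0.44 with the length trend removed). ZNF518B rose in total RNA from 22.6, 20.9 and 24.3 CPM to 37.1, 35.8 and 38.2 CPM while polysome RNA overlapped, with a log2 TE change of -0.70 ± 0.21 (SE; edgeR, adjusted p = 0.018; 0.78 with the length trend removed), and the call ended without shCtrl total replicate 2 (adjusted p = 0.055). ZNF638, which recruits the HUSH silencing complex to unintegrated viral DNA, and ZNF711, which brings the demethylase PHF8 to promoters, overlapped between the lines in both fractions. Their log2 TE changes were -0.32 ± 0.25 and -0.10 ± 0.20 (SE), neither of them called.

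The NET family partner of ZNF503, ZNF703, was the most abundant member at 454, 521 and 418 CPM in shCtrl and 561, 569 and 480 CPM in shPRRC2B total RNA. Its polysome values of 204, 189 and 212 CPM and of 188, 152 and 123 CPM did not overlap. The log2 TE change was -0.59 ± 0.21 (SE; edgeR, adjusted p = 0.045; 0.12 with the length trend removed), close to the threshold. The call of ZNF703 ended when any 1 of 7 libraries was left out (in total RNA replicates 1 and 3 of shCtrl and 1 and 2 of shPRRC2B, in polysome RNA replicate 3 of shCtrl and 2 and 3 of shPRRC2B), with an adjusted p of 0.059 to 0.11 (edgeR). It also ended with scaling by total counts and with at least 10 counts in every library. ZNF503 had a log2 TE change of -0.23 ± 0.20 (SE; edgeR, adjusted p = 0.42).

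Genes picked for a list of KRAB corepressors were lower in polysome RNA and TE more often than in total RNA. They were TRIM28, SETDB1, ATF7IP, CBX1, CBX3, CBX5, CHD3, CHD4, HDAC1, HDAC2, MPHOSPH8, TASOR, PPHLN1, MORC2, DNMT1 and UHRF1. Of 16 such genes 11 (68.8%) had lower TE, against 16.4% of all genes tested, and 14 (87.5%) were lower in polysome RNA, against 21.4%. In total RNA 2 (12.5%) were lower, against 14.1%, and 1 was higher, and 0 were higher in TE or polysome RNA (edgeR). Among all genes with a length, lower TE was called in 6.29% of the shortest and 39.8% of the longest class compared further on. Lower polysome RNA was called in 13% and 41.3% of the same classes. The 16 genes were not compared with genes of like length. Whether their calls hold with the length trend removed was not examined. TRIM28, the scaffold that KRAB domains bind, had a log2 TE change of -1.18 ± 0.21 (SE; edgeR, adjusted p = 0.00068), with polysome RNA between 277 and 449 CPM in shCtrl and between 117 and 131 CPM in shPRRC2B. In total RNA it was at 513 to 588 CPM against 400.2 to 441 CPM and not called (log2 change -0.37 ± 0.15, SE; edgeR, adjusted p = 0.061). The median log2 TE change of the 16 genes was -0.86, beside -0.04 for the members.

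Apart from the line, members differed widely in how much of their RNA was in polysomes. In shCtrl, 35 members were higher in polysome than in total RNA, 19.6% against 32.5% of all genes tested, and 75 were lower, 41.9% against 39.8%. The median log2 ratio was -0.42, where that of all genes was -0.22. In shPRRC2B, 40 members were higher (22.3% against 36.6%) and 81 lower (45.3% against 42.3%), with a median of -0.48. The level of these ratios depends on the scaling between the fractions. With library totals in place of TMM the median of all genes moved to -1.22 and that of the members to -1.42 in shCtrl, and 12 members were higher and 139 lower.

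The members with the highest ratios in shCtrl were ZNF511, ZNF706, ZNF688 and ZNF576. ZNF511, the shortest transcript of the members with 1084 nt, was at 10.2, 11.5 and 10.7 CPM in total RNA and at 100.03, 74.5 and 73.9 CPM in polysome RNA (log2 ratio 2.94 ± 0.17, SE; edgeR, adjusted p = 3.0e-11), and 41.4% of its 100-base stretches are shared with the readthrough gene ZNF511-PRAP1. ZNF706 was at 30.6, 30.8 and 29.9 CPM and at 246, 182 and 173 CPM (log2 ratio 2.72 ± 0.15, SE). ZNF688 and ZNF576 had log2 ratios of 2.50 ± 0.19 and 2.46 ± 0.18 (SE). The fractions did not overlap in any of the 4 genes.

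The lowest ratios were those of ZNF785, ZNF609, ZNF516 and ZNF704. ZNF785 had 141, 138 and 66 counts in shCtrl total RNA and 3, 0 and 4 counts in polysome RNA, so its log2 ratio of -4.32 ± 0.54 (SE) rests on very few polysome reads. ZNF609 had a log2 ratio of -3.49 ± 0.17 and ZNF516, a transcriptional regulator of brown fat genes, one of -3.11 ± 0.16 (SE). ZNF704, the longest transcript of the members with 14386 nt, was at 61.5, 59.5 and 69.2 CPM in total RNA and at 6.09, 10.6 and 8.98 CPM in polysome RNA (log2 ratio -2.89 ± 0.17, SE). Its TE was also lower in shPRRC2B, with a log2 TE change of -0.99 ± 0.25 (SE; edgeR, adjusted p = 0.0071). Whether this call holds with the length trend removed was not examined.

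Long transcripts had lower ratios and lower TE. Across 178 members, the log2 length of the canonical transcript and the log2 ratio in shCtrl had a Pearson r of -0.60 and a Spearman rho of -0.61, and length and the TE change an r of -0.28 and a rho of -0.32. These are descriptions over genes measured in the same libraries. The number of fingers had an r of -0.01 with the ratio and of -0.03 with the TE change over 177 members. TE was lower in 0 of the 60 members with up to 3291 nt (edgeR, 1 at an unadjusted p under 0.05, and 1 called by DESeq2), in 10 of the 59 between 3307 and 4987 nt and in 15 of the 59 from 5144 nt on. Over all genes tested with a length, the shares in the same classes were 6.29%, 24.5% and 39.8%. When the trend on length was removed from each library, the number of members with lower TE was 6 in place of 25, and the median log2 TE change of the members turned from -0.04 to 0.26. In the same setting the median ratio in shCtrl turned from -0.42 to 0.17. Members had a median length of 4085 nt, where that of all genes tested was 3052.5 nt.

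**Figure D5:**
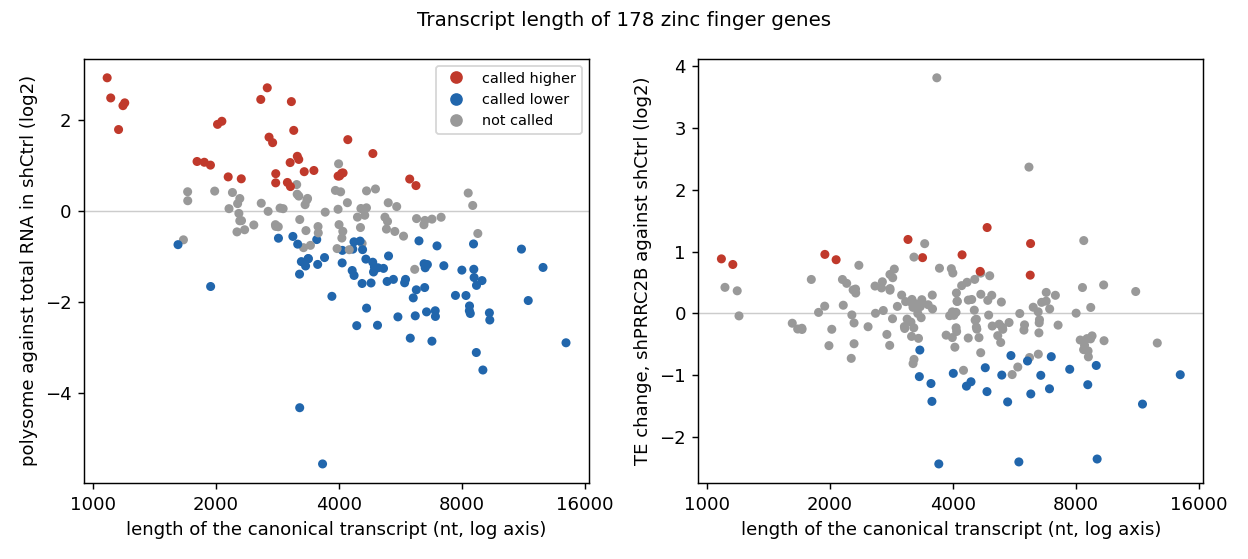
Length of the canonical transcript of 178 members (horizontal log axis, nt) against the log2 ratio of polysome to total RNA in shCtrl (left) and against the log2 TE change between shPRRC2B and shCtrl (right), with points coloured by the call of each comparison. Ratios fall with length, from the high value of ZNF511 at the left end to the low value of ZNF704 at the right end, and the lower TE calls lie from 3307 nt on.

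The study's PAR-CLIP tables list 5 members with a binding site of PRRC2B, expressed either at full length or as the fragment named P2. PAR-CLIP crosslinks a protein to RNA in cells through a photoreactive nucleoside and sequences the bound pieces. The middle 30 bases of each listed site, read from GRCh38 on the strand of the gene, are shown. The paper counts an mRNA as bound where a site of the full-length protein and a site of P2 overlap. Among these members a site listed for both is that of ZNF503 alone, and the sites of ZNF664 are listed for P2 only. Capitals mark the longest run made only of C and T or only of G and A, and the first such run where several are equally long.
ZNF664, 3′ UTR, chr12:124012966-124012995, plus strand, P2: taagtgccactAGGAAGGAAAccctgtata
ZNF664, 3′ UTR, chr12:124013239-124013268, plus strand, P2: gCCTCCTgagtcaccttctatctatacttt
ZNF529, 3′ UTR, chr19:36545602-36545631, minus strand, full length: aatctcatttaactccaaaatcaTCTCTCT
ZNF574, coding sequence or 5′ UTR, chr19:42079252-42079281, plus strand, full length: tgctctgagtgctcccagCTCTTCCagctg
ZNF503, coding sequence, chr10:75399667-75399696, minus strand, full length: ttgggctctgggctggtggCTCCCgtgtca
ZNF503, coding sequence, chr10:75399756-75399785, minus strand, P2 and full length: cGGGAGGcaaggctctgggctcggactgcg
ZNF746, coding sequence, chr7:149475024-149475053, minus strand, full length: cgaaCCCTgtaaataccctggccggaccaa
The longest such run was 10 bases, in the first site of ZNF664, and the other windows had runs of 4 to 7 bases.

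Of these 5 members, TE fell in ZNF664, listed with P2 sites only, beside 16.4% of all genes tested. It was not called in the others, among them ZNF503 with its site of both proteins. Of the 100-base stretches of ZNF664, 6.43% are shared with another gene. ZNF664 was at 235, 231 and 241 CPM in shCtrl and at 199.9, 201 and 194 CPM in shPRRC2B total RNA, and at 98.6, 92.2 and 95.5 CPM against 48.6, 33.0 and 24.8 CPM in polysome RNA. All shPRRC2B polysome values lay far below the control range, and the log2 TE change was -1.18 ± 0.24 (SE; edgeR, adjusted p = 0.0015). ZNF529, a KRAB zinc finger gene, fell in polysome RNA from 8.62, 9.01 and 9.43 CPM to 6.53, 5.06 and 4.28 CPM (log2 change -0.76 ± 0.19, SE; edgeR, adjusted p = 0.0037), with a log2 TE change of -0.36 ± 0.25 (SE) that was not called.

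ZNF746 (PARIS), a repressor that the ubiquitin ligase parkin targets, was at 16.3, 13.6 and 15.1 CPM against 10.6, 9.17 and 12.2 CPM in polysome RNA. The lines did not overlap, but the log2 change of -0.49 ± 0.15 (SE; edgeR, adjusted p = 0.013) did not reach the minimum change, and the log2 TE change was -0.35 ± 0.20 (SE; edgeR, adjusted p = 0.20). ZNF574 had overlapping polysome values of 17.9, 15.6 and 13.2 CPM and of 13.2, 11.8 and 10.4 CPM, with a log2 TE change of -0.09 ± 0.22 (SE; edgeR, adjusted p = 0.80).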

How the data were processed

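Total and polysome RNA of HEK293T lines was sequenced in 12 libraries. The authors deposited raw counts, which give the paired reads of each gene name in each library and are not normalized. The submitters' processing notes and the methods name Trimmomatic 0.36 for trimming, HISAT2 (2.1.0 in the notes) for alignment to GRCh38, and featureCounts of Subread 2.0.1 with GENCODE 38 for counting. No column of values (0) belonged to no library. The labels gave the groups, and the methods gave the time after Dox.

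The comparisons used edgeR 4.0.16 in R 4.3.3 (filterByExpr with a minimum count of 10, TMM, glmQLFit and glmQLFTest, 1 fit with 4 groups), and CPM are TMM-scaled. Calls needed a Benjamini-Hochberg adjusted p under 0.05 over all genes tested and a log2 change beyond 0.5. Alternatives used DESeq2 1.42.0, limma 3.58.1 on log2(CPM + 1), other scalings and filters, a replicate block, removal of a length trend (lowess, span 0.3) and each library left out in turn. The counts by place, the omission of polysome replicate 1 of both lines and that of members carried by 1 line were added after the data were seen. Lengths and positions came from GENCODE 44, whereas the counts used GENCODE 38. The finger pattern was a pair of cysteines, 12 residues and a pair of histidines, and the KRAB pattern was sought in the first 300 residues.

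Members, lists and tests were chosen with earlier results of these data known. Named members, with a mean of at least 2 CPM, were the 6 largest rises and 6 largest falls in TE, the 4 largest each way in total RNA and polysome RNA, and the 4 highest and 4 lowest ratios in shCtrl among those called, plus members of ribosome, chromatin, NET family and PAR-CLIP groups whatever their values. Shares of counts in single libraries are given as ranges over the replicates, with no binomial interval. On simulated data with a true log2 change of 1.5, 153 of 189 changed genes (81%) were called in total RNA and 128 (67.7%) in TE, with 9 and 5 false calls among 17282 genes.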

Additional observations from a re-analysis of the deposited data

Results flagged for a closer look

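For 9 named members the change between the lines differed between the fractions, by the interaction term of the fit (the TE change, called by edgeR), and total and polysome RNA changed with opposite sign. Polysome RNA had the positive sign in ZNF514 (log2 TE change 1.13), ZNF599 (1.20) and ZNF720 (1.18). It had the negative sign in ZNF609 (-2.36), ZNF652 (-1.47), ZNF770 (-1.43), ZNF704 (-0.99), ZNF687 (-0.88) and ZNF703 (-0.59). In none of the 9 was the total RNA change itself called, and 0 members were called in opposite directions in the fractions. Groups of 3 libraries were not searched gene by gene for single high or low values, and the polysome libraries that stand apart from their group are described with the library totals.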

How the results depend on the processing

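The number of members lower in total RNA was 49 to 63 under the other tools, scalings and filters, and the places kept their order, with 26 to 35 members lower on chromosome 19 from 40 Mb on, 6 or 7 on chromosome 3 and 17 to 21 elsewhere. Scaling by total counts moved the median log2 change of members to 0.0095 in TE and -0.35 in total RNA. For polysome against total RNA it gave 12 members higher, 139 lower and a median of -1.42 in shCtrl, and 14 higher, 125 lower and a median of -1.43 in shPRRC2B. Keeping every gene with at least 1 count gave medians of -0.087 in TE, -0.52 in polysome RNA, and -0.55 and -0.66 for the ratio in shCtrl and shPRRC2B. With at least 10 counts in every library, which left 149 members, the medians were -0.35 in polysome RNA and -0.34 for the ratio in shPRRC2B, and limma gave -0.34 in polysome RNA. With the length trend removed, 6 members had lower TE, and medians were 0.26 in TE, -0.38 in total RNA and -0.30 in polysome RNA. The ratio then had 64 members higher, 34 lower and a median of 0.17 in shCtrl, and 78 higher, 36 lower and a median of 0.37 in shPRRC2B. With the length trend removed and the replicate block together, 6 members had lower TE, 10 were higher in total RNA, medians were 0.26, -0.38 and -0.27 in TE, total and polysome RNA, and the ratios gave 63 higher, 35 lower and 0.16 in shCtrl and 78 higher, 34 lower and 0.38 in shPRRC2B. The log2 TE changes that turned positive without the length trend, none of them called, were those of ZNF592 (0.26), ZNF638 (0.25), ZNF711 (0.26), ZNF529 (0.068) and ZNF574 (0.013), and with the block in addition 0.27, 0.27, 0.27, 0.070 and 0.014. Of the called TE falls named above, ZNF652, ZNF770, ZNF780A, ZNF532, ZNF687, ZNF644, ZNF518B and ZNF703 were no longer called there. The TE change of ZNF704 was not followed under the alternatives. ZNF703 also lost its call with scaling by total counts and with at least 10 counts in every library. Without polysome replicate 1 of both lines, an alternative chosen after seeing the data, medians were -0.13 in TE, -0.33 in total RNA, -0.52 in polysome RNA and -0.60 for the ratio in shPRRC2B, and ZNF592 gained a call.

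Leaving out each library in turn gave 9 to 16 members higher and 18 to 34 lower in TE, 9 to 17 higher and 51 to 65 lower in total RNA, 16 to 19 higher and 71 to 83 lower in polysome RNA, 30 to 35 higher and 72 to 79 lower for the ratio in shCtrl and 33 to 39 higher and 79 to 89 lower in shPRRC2B. The medians ranged from -0.13 to -0.032 in TE, -0.33 to -0.27 in total RNA, -0.59 to -0.43 in polysome RNA, -0.46 to -0.42 and -0.61 to -0.47 for the ratios. By place, 32 to 38, 5 to 7 and 13 to 20 members were lower. Replicate numbers did not pair the libraries: of 18 correlations between libraries of the same number, 0 were above 0.1 (r from -0.06 to 0.05), and 7 were the best of their library. With the replicate block no count of members moved by over 1.5 times and no named member gained or lost a call. Depth limits members with few polysome reads, such as ZNF785, ZNF543 and ZNF587B.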
